A study of Mus musculus with 15 samples.

Results

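Medulloblastomas labelled R-type were compared with medulloblastomas labelled S-type after the same dose of 0.2 Gy, with 3 tumours of each type and 1 one-colour Agilent array per tumour. The 6 arrays were taken by their labels alone, from 15 arrays in the series: MB7, MB8 and MB9 are R-type, and MB4, MB5 and MB6 are S-type. All 6 tumours arose in Ptch1+/- mice of the C3B6F1 background that had received X-rays on postnatal day 1 and were followed until they were moribund. Genotype, strain and dose were therefore shared by both groups, and 0.2 Gy was the 1 dose with arrays of both types. The labels do not say what the letters S and R stand for. The study is known to have sorted its tumours by the pattern of loss on chromosome 13 around Ptch1, which the labels used here do not record. Ptch1 and its neighbours on chromosome 13 may thus be part of how the types were defined, and their values are given as a description of the groups.

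Of the other arrays, 3 held S-type tumours of nonirradiated mice (MB1 to MB3) and 3 held R-type tumours after 1.5 Gy (MB10 to MB12), all from Ptch1+/- mice of the same background. The remaining 3 held normal cerebellum of mice whose genotype is not given. Age at sampling, with no unit in the labels, was 127 (MB7), 106 (MB8) and 113 (MB9) for the R-type tumours and 128 (MB4), 133 (MB5) and 135 (MB6) for the S-type tumours. The ages did not overlap, so age and type cannot be told apart. Ages were 160, 173 and 172 in MB1 to MB3 and 87, 101 and 103 in MB10 to MB12. Normal cerebellum was taken at 103, 103 and 113. MB6 was the only tumour labelled male. MB4 and MB7 shared a slide, as did MB5 and MB9, while MB6 and MB8 lay on slides of their own. Between 59.1% (MB6) and 66.5% (MB5) of 41098 probes were well above background. R-type arrays had 75th percentiles of 1240.9 to 1366.6 signal units and S-type arrays had 1422.2 to 1608.8, without overlap. The labels give a different age for each of the 6 tumours, so each came from a mouse of its own.

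Medulloblastoma of Ptch1+/- mice is a tumour of granule neuron precursors, the dividing cells of the outer layer of the young cerebellum. PTCH1 is the receptor of sonic hedgehog (SHH). Without its ligand it holds back the signal transducer SMO, and with it the GLI transcription factors, so that loss of the remaining wild-type Ptch1 allele leaves the pathway switched on. In the text below, a level is the log2 processed signal less the 75th percentile of its array, and a difference is the mean of the R-type tumours less that of the S-type tumours on this log2 scale. A gene changed where limma gave an adjusted p (Benjamini-Hochberg over all tested genes) under 0.05. Whether a difference in bulk tissue came from fewer cells of a type or from less RNA per cell cannot be told apart.

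The tissue was checked against marker lists. The 19 listed genes of granule neuron precursors had mean levels of 1.15, 1.00 and 1.25 in MB4, MB5 and MB6 and of 1.34, 1.17 and 1.19 in MB7, MB8 and MB9, against −2.44 in normal cerebellum. The 12 Purkinje cell genes stood at −2.29 to −1.37 in the S-type and −2.13 to −2.08 in the R-type tumours, against 3.70 in normal cerebellum. All 6 tumours thus carried the precursor genes at levels far above normal cerebellum and the Purkinje cell genes far below it.

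Of 21661 tested genes 1033 changed between the types, or 4.77%. R-type tumours were higher in 430 genes, or 1.99% of those tested, and lower in 603, or 2.78%. Of the changed genes 332 differed at least 2-fold, 133 of them higher and 199 lower in R-type tumours. The 3 R-type values and the 3 S-type values did not overlap in 1031 of the 1033, against 32.5% of all tested genes (7033). The genes were called on these same values, so their separation largely follows from the call and adds no support. The median difference over all tested genes was 0.02. The balance of directions depended on the processing, with 41.6% of the changed genes higher here. Quantile normalization gave 39.3% and another background correction on median signals (normexp) gave 60.8%. Without scaling the median over all genes was −0.23, and 158 changed genes were higher against 2515 lower. Directions are therefore read relative to the median of all genes.

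Genes with large rises were of several kinds, among them growth factors, an RNA-binding protein of the IGF system and proteins of neuronal surfaces. Tenm3, a teneurin that guides the wiring of neurons, had levels of 1.11 (MB7), −0.83 (MB8) and 1.25 (MB9) against −3.53 (MB4), −2.66 (MB5) and −6.37 (MB6). The groups did not overlap, and 2 of the 3 S-type arrays were well above background. Its difference was 4.70 (SE 1.17, adjusted p 0.0428 in limma), and the call was lost without any 1 array other than MB8 (adjusted p up to 0.154). Igf2bp3, an RNA-binding protein of the fetal growth programme that binds Igf2 transcripts, stood at −2.37, −5.01 and −1.53 in MB7, MB8 and MB9. It was not well above background in any S-type tumour at 0.2 Gy (−7.53, −8.25 and −7.09), though it was in 1 nonirradiated S-type tumour. Against the lowest measurable signal of the S-type arrays at 0.2 Gy it was at least 5.39-fold higher in R-type tumours (adjusted p 0.0257), with MB8 the lowest of the 3. Without any 1 array other than MB8 its adjusted p rose to as much as 0.106.

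Fgf5, a secreted fibroblast growth factor, was measured in all 6 tumours, at 2.84, 1.79 and 3.08 in MB7, MB8 and MB9 and at −0.91, −0.86 and −1.37 in MB4, MB5 and MB6. The difference of 3.62 (SE 0.52, adjusted p 0.0031) was larger than the spread within either type, and normal cerebellum stood lower than both, at −2.37 ± 0.16 (SD, n = 3). Islr2, a surface protein of growing axons, was at 0.71, 0.04 and −0.55 in the R-type and −2.06, −3.69 and −3.81 in the S-type tumours (difference 3.25, SE 0.58, adjusted p 0.0115). MB4 was the highest of the S-type tumours in this gene. The calls of Fgf5 and Islr2 held with each of the 6 arrays left out, and that of Islr2 was lost with only the 6 arrays in the fit (adjusted p 0.0576).

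**Figure D1:**
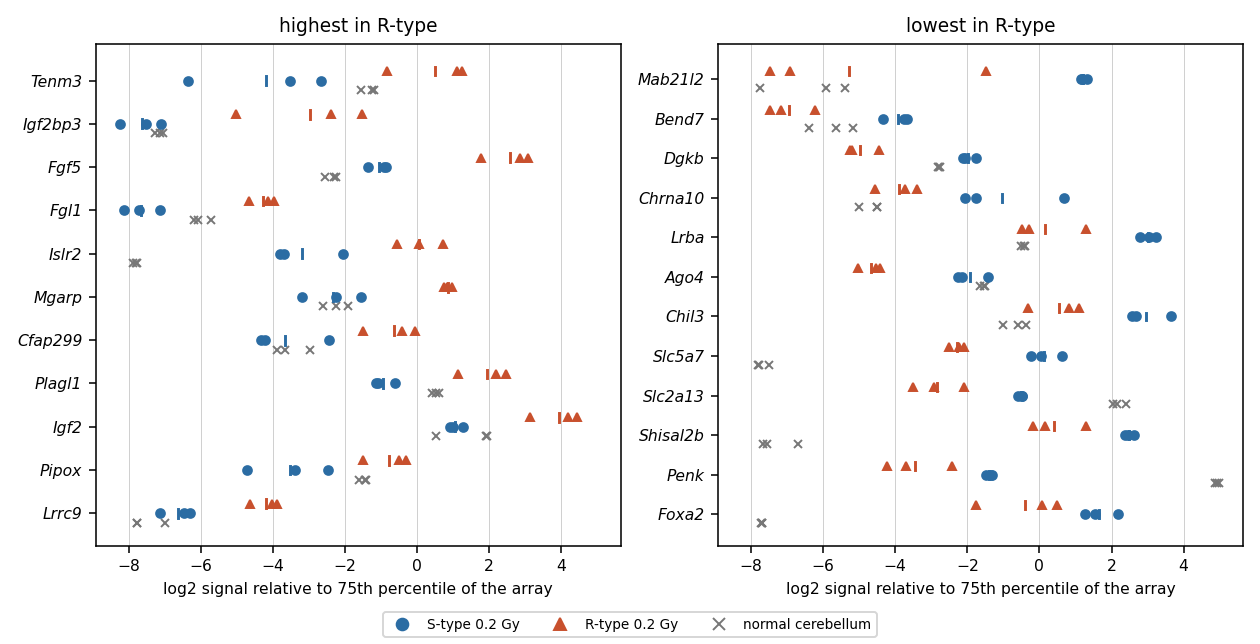
Levels of genes with the highest (left) and lowest (right) differences among those named by rule, on the log2 scale less the array's 75th percentile (horizontal axis), with 1 point per array for S-type (circles) and R-type tumours (triangles) at 0.2 Gy and normal cerebellum (crosses), and short bars at the means of the tumour groups. The naming rule took only genes in which the 3 R-type and the 3 S-type points do not overlap. Mab21l2 spreads from −7.49 to −1.48 within the R-type tumours.

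Plagl1 and Igf2 are imprinted genes that promote or regulate fetal growth. Plagl1, a zinc finger transcription factor of an imprinted gene network, had levels of 2.48, 1.15 and 2.20 in MB7, MB8 and MB9 and of −1.14, −1.09 and −0.60 in MB4, MB5 and MB6. The R-type tumours lay above normal cerebellum (0.52 ± 0.10, SD, n = 3) and the S-type tumours below it. The difference was 2.88 (SE 0.31, adjusted p 0.000484), and it was 3.62 and 3.29 within the slides that held both types. The exact two-sided permutation test over the 20 splits of the 6 arrays gave p = 0.1, the smallest that 3 against 3 allow.

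Igf2, insulin-like growth factor 2, stood at 4.45, 3.13 and 4.20 in MB7, MB8 and MB9 against 1.26, 0.91 and 1.01 in MB4, MB5 and MB6. Every R-type tumour was above every S-type tumour, with a difference of 2.87 (SE 0.62, adjusted p 0.0256), and the exact permutation p was 0.1. Leaving out any 1 array other than MB8 ended this call (adjusted p up to 0.0976), as did age as a covariate (adjusted p 0.151). In the tumours of the other doses the difference of Igf2 was 0.43 (adjusted p 0.696), while that of Plagl1 was 2.55 (adjusted p 0.00078). The difference between these differences did not pass for either gene (adjusted p 0.596 for Igf2 and 0.937 for Plagl1). Cdkn1c, an imprinted inhibitor of cyclin-dependent kinases, overlapped between the types, at 1.61, 2.20 and 1.63 against 1.17, 0.91 and 1.73 (difference 0.54, SE 0.37, adjusted p 0.419, exact permutation p 0.3). Plagl1 and Igf2 were the only 2 of 18 tested imprinted genes to rise, and none fell (median of the list 0.03). Over all tested genes 1.99% rose and 2.78% fell.

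Other named rises were those of Cfap299, Pipox, Fgl1 and Lrrc9. Cfap299 was higher by 3.01 (adjusted p 0.0208), a call lost without MB4, MB6, MB7 or MB9 (adjusted p up to 0.0881). Pipox, a peroxisomal oxidase of pipecolic acid and sarcosine, was higher by 2.76 (adjusted p 0.0161), and lost its call without MB7 or MB9 (adjusted p up to 0.0691). Fgl1, a secreted fibrinogen-like protein, was not well above background in S-type tumours at 0.2 Gy and at least 2.21-fold higher in R-type tumours (adjusted p 0.01). Among the 6 tumours Lrrc9 was likewise well above background in R-type tumours only, at least 2.34-fold higher (adjusted p 0.00353). Both Fgl1 and Lrrc9 were well above background in 1 nonirradiated S-type tumour. Among the arrays of these 6 tumours, 21 changed genes were well above background on R-type arrays only and 24 on S-type arrays only. The share of all tested genes with such a pattern is not given here. The genes were taken from those already called, so these counts describe the called genes and support nothing further.

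The lowest differences belonged to genes of several kinds, among them transcription factors of development and transporters. Mab21l2, a developmental regulator of eye and midbrain, had levels of 1.33, 1.18 and 1.14 in MB4, MB5 and MB6. In R-type tumours it was at −1.48 in MB7 and at −6.92 and −7.49 in MB8 and MB9, and 1 of these 3 arrays was well above background. The fall (adjusted p 0.0322) has no single size, since the difference was −2.81 on the slide of MB4 and MB7 and −8.66 on that of MB5 and MB9. Its call was lost without any 1 array other than MB7 (adjusted p up to 0.129). Foxa2, a forkhead factor of the floor plate and of dopamine neurons, stood at −1.75, 0.47 and 0.06 in MB7, MB8 and MB9 and at 1.27, 1.53 and 2.17 in MB4, MB5 and MB6. It fell by 2.06 (SE 0.45, adjusted p 0.0257), with MB7 the lowest, and lost its call without MB4, MB5, MB6 or MB9 (adjusted p up to 0.0899).

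Dgkb, a diacylglycerol kinase, had levels of −4.45, −5.25 and −5.21 in MB7, MB8 and MB9 against −2.07, −1.75 and −2.12 in MB4, MB5 and MB6. The difference was −2.99 (SE 0.32, adjusted p 0.000491), with 1 of the R-type tumours well above background. Bend7 was not well above background in R-type tumours at 0.2 Gy and at least 2.64-fold lower there (adjusted p 0.0042). Ago4, an Argonaute protein of small RNA silencing, differed by −2.73 (SE 0.24, adjusted p 0.000123) on its brightest probe, which was well above background in 2 of the R-type tumours. Its 3 probes disagreed, with differences from −2.73 to 0.01, so the value belongs to that probe and not to the gene as a whole.

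The inositol transporter gene Slc2a13 and the choline transporter gene Slc5a7 fell in R-type tumours. Slc2a13 was at −2.93, −2.11 and −3.51 in MB7, MB8 and MB9 and at −0.60, −0.49 and −0.48 in MB4, MB5 and MB6 (difference −2.33, SE 0.28, adjusted p 0.000915). Both groups were below normal cerebellum, which stood at 2.19 ± 0.18 (SD, n = 3). Slc5a7, which cholinergic neurons use to take up choline, was at −2.52, −2.23 and −2.09 against −0.24, 0.04 and 0.61 (difference −2.42, SE 0.37, adjusted p 0.00503), far above normal cerebellum (−7.70 ± 0.16, SD, n = 3) in every tumour. With age as a covariate the call of Slc5a7 was lost (adjusted p 0.0644).

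Falls of comparable size were less stable to the loss of 1 array. Lrba, a protein of vesicle trafficking, fell by 2.86 (adjusted p 0.0148), and its call was lost without MB4 or MB9 (adjusted p up to 0.0681). Shisal2b fell by 2.07 (adjusted p 0.0208) and Penk, the precursor of enkephalin peptides, by 2.07 (adjusted p 0.0403). Both calls were lost without any 1 array other than MB8 (adjusted p up to 0.0881 and 0.16). Shisal2b lies on chromosome 13, which may be part of how the types were defined, so its p-value only describes the groups. Chrna10, a subunit of nicotinic acetylcholine receptors, fell by 2.86 (adjusted p 0.0421), and Chil3, a chitinase-like protein of macrophages, by 2.44 (adjusted p 0.0406). The last pair of calls was lost with any 1 of the 6 arrays left out (adjusted p up to 0.161 for each).

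Ptch1, the gene targeted in these mice, was lower in R-type tumours. Its level was −3.16 in MB7, −2.98 in MB8 and −3.16 in MB9, against −1.60 in MB4, −1.76 in MB5 and −2.08 in MB6, and the groups did not overlap. The difference was −1.29 (SE 0.17, adjusted p 0.00175 in limma), it was −1.56 and −1.39 within slides, and the exact permutation p was 0.1. Normal cerebellum stood at −3.19 ± 0.15 (SD, n = 3), at the level of the R-type tumours (−3.10 ± 0.10, SD, n = 3). Where the probe lies with respect to the targeted exons was not established here, so signal from the targeted allele cannot be told apart from that of the wild-type allele.

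Of the 17 tested genes of the SHH pathway and its targets 1 rose and 2 fell, against 4.77% of all tested genes that changed. The median difference of the list was −0.03. Igf2, which is also a known target of SHH signalling in this tumour, was the one that rose. Besides Ptch1, Gas1, a surface co-receptor for SHH, stood at 0.49 ± 0.17 in R-type and 1.10 ± 0.09 in S-type tumours (SD, n = 3 each), and fell by 0.61 (adjusted p 0.0342). Gas1 lies 10 tested genes from Ptch1 on chromosome 13, and its call was lost with any 1 array left out (adjusted p up to 0.109). The other 14 tested genes of the list did not pass. Of 22 tested genes of the primary cilium, the organelle in which SMO acts, 1 fell, against 2.78% of all tested genes. It was Ift172, a part of the transport machinery of the cilium. Ift172 was at 0.81, 0.82 and 0.87 in MB7, MB8 and MB9 against 1.28, 1.31 and 1.19 in MB4, MB5 and MB6, a small difference of −0.42 (SE 0.07, adjusted p 0.00812) that exceeded the spread within both types. Its call was lost with only the 6 arrays in the fit (adjusted p 0.057), and in the other tumours its difference was −0.05 (adjusted p 0.671).

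On chromosome 13 a larger share of genes changed than on any other chromosome. There 104 of 483 tested genes changed, or 21.5%, of which 95 were lower and 9 higher in R-type tumours, with a median difference of −0.24. On the other chromosomes 2.23% to 5.56% of genes changed, and over all genes not placed on chromosome 13 the share was 4.39% (929 of 21178). The tumours differed in how much of the chromosome was involved: the median over its genes against the mean of the S-type tumours was −0.26 in MB7, −0.08 in MB8 and −0.23 in MB9. Each S-type tumour against the other S-type tumours had a median between −0.04 and 0.02. The share of the chromosome was not itself tested, and the p-values of its single genes describe the groups, since its loss may have defined the types.

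In each R-type tumour the highest-scoring run of neighbouring genes with lower signal, called its stretch here, held Ptch1. The search kept 1 run per tumour, so other low genes can lie outside it. A run can also hold genes that are not low. Among 433 ordered genes with signal in all 3 arrays of either group, the stretch of MB7 reached from Gdi2, the first gene in the order, to Prxl2c, over 252 genes with a median of −0.72 inside and 0.06 outside it. The stretch of MB8 reached from Phactr1 to Med10, over 143 genes with a median of −0.81 inside and 0.09 outside. In MB9 it reached from Carmil1 to Prxl2c, over 177 genes with a median of −0.73 inside and 0.05 outside, and the windows before the histone genes were also low in that tumour (−0.82 from Wdr37 to Gli3). In S-type tumours the same search gave runs of 1 to 6 genes that did not hold Ptch1. The search scores each gene by how far it lies below a set level, and its ends depend on that level, which was chosen with the data in view.

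All 3 R-type tumours shared the stretch from Phactr1 to Prxl2c. Of its 117 genes 78 fell and none rose, 110 had a difference below 0, and the median was −0.78. This stretch was chosen from these values, so the counts describe it and support nothing further. Its median was −0.80 in MB7, −0.82 in MB8 and −0.76 in MB9. In the R-type tumours after 1.5 Gy it was −0.69 (MB10), −0.83 (MB11) and −0.84 (MB12), and in the nonirradiated S-type tumours −0.05 (MB1), −0.09 (MB2) and −0.01 (MB3), each against the mean of the S-type tumours at 0.2 Gy. The 6 R-type tumours thus stood together and the nonirradiated S-type tumours stood near 0.

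**Figure D2:**
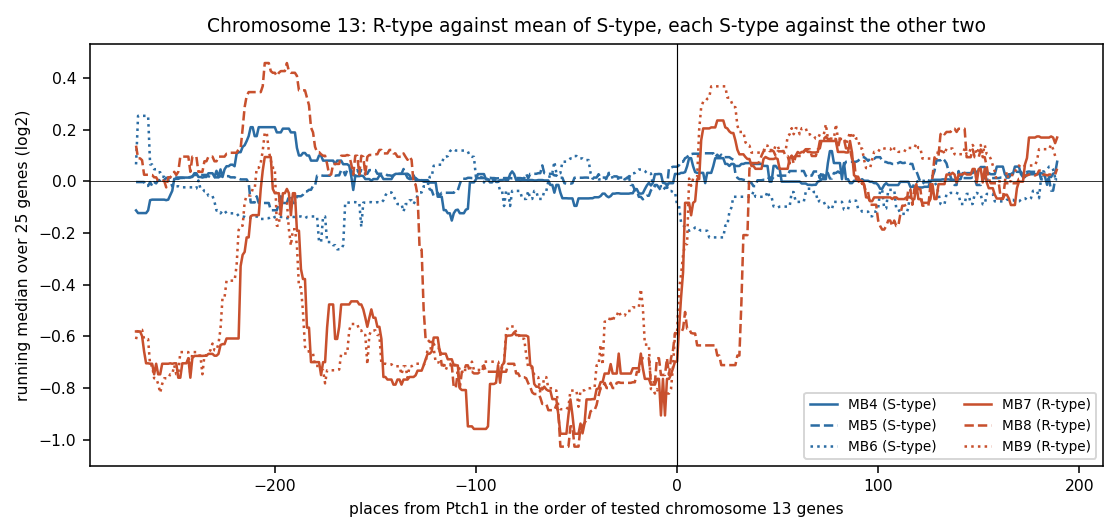
Running median over 25 neighbouring genes of the difference of each tumour on chromosome 13 (vertical axis, log2), along the order of tested genes counted from Ptch1 (horizontal axis, number of genes). Each R-type line is set against the mean of the S-type tumours and each S-type line against the other S-type tumours. MB7 and MB9 lie low over most of the order before Ptch1, with a rise to near 0 at the histone genes, and return to near 0 past Ptch1. MB8 lies at or above 0 up to about Phactr1, is low from there across Ptch1 and returns to near 0 past Med10.

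Several changed genes of the lists lay on this chromosome. Smad5, which carries the signal of BMP receptors, was at 2.62, 2.75 and 2.61 in MB7, MB8 and MB9 against 3.56, 3.54 and 3.67 in MB4, MB5 and MB6 (difference −0.93, SE 0.09, adjusted p 0.000285). Jarid2, a partner of Polycomb repressive complex 2, was at 1.02, 0.91 and 0.90 against 1.61, 1.72 and 1.80 (difference −0.77, SE 0.08, adjusted p 0.000362). Fancc, a Fanconi anaemia protein of DNA crosslink repair that lies beside Ptch1, was at −1.44, −1.45 and −1.36 against −0.29, −0.18 and −0.19 (difference −1.20, SE 0.12, adjusted p 0.00042). In these 3 genes of the shared stretch the tumours of a type lay close together and far from the other type.

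Sox4, a transcription factor of immature neurons, lay on chromosome 13 too, before the shared stretch and outside the stretch of MB8. Its level was 1.27 in MB7, 1.99 in MB8 and 1.16 in MB9, against 2.40, 2.44 and 2.55 in MB4, MB5 and MB6. MB8 was the R-type tumour nearest to the S-type tumours. The difference was −0.99 (SE 0.24, adjusted p 0.0382), and the call was lost without any 1 array other than MB8 (adjusted p up to 0.151). Of the 9 genes of chromosome 13 that rose, 5 were replication-dependent histone genes of one cluster (H2bc14, H2bc12, H3c1, H1f1 and H2bc1, with differences of 0.76 to 1.52), and the others were Vcan (1.19), Map1b (1.38), Mrps36 (0.28) and Ppwd1 (1.25). These 9 were named after their values were seen.

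Chromosome 6 had the highest median of all chromosomes, 0.17, with 18 of 673 tested genes higher and 4 lower, or 3.27% changed. This shift followed 1 S-type tumour. MB6 had a median of −0.36 over chromosome 6 against the other S-type tumours, while MB4 and MB5 had 0.20 and 0.15 against the others, and without MB6 the median difference between the types was 0.07. Igf2bp3 and Tpi1 are genes of chromosome 6. Without MB6 the call of Igf2bp3 was lost (adjusted p 0.0583), and Tpi1 differed by 0.72 (adjusted p 0.0411).

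**Figure D3:**
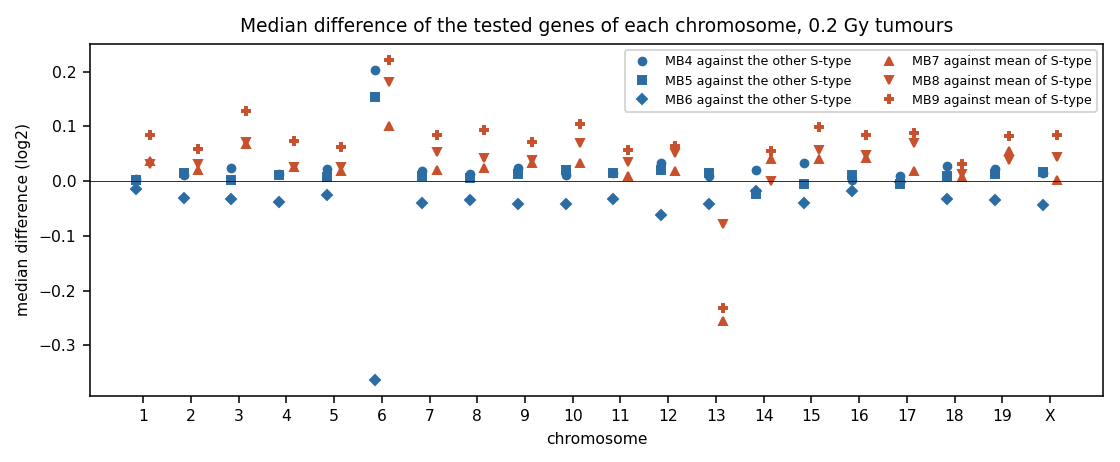
Median difference over the tested genes of each chromosome (vertical axis, log2), with each R-type tumour set against the mean of the S-type tumours and each S-type tumour against the other S-type tumours. Chromosome 13 is low in MB7 (−0.26) and MB9 (−0.23) and less so in MB8 (−0.08), and on chromosome 6 MB6 lies at −0.36.

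The hypoxia and glycolysis list had the most risen members of all 37 lists with the settings used here. Of its 19 tested genes 4 rose (Mgarp, Car9, Tpi1 and Slc2a1) and none fell, against 1.99% of all tested genes that rose. This rank depended on the setting. With normexp, a stricter filter or an intensity trend the list kept 4 risen genes, while the list of cytosolic ribosomal proteins had 5, 5 and 7. In cells short of oxygen the factor HIF binds DNA at a short core motif and raises genes for glucose uptake, glycolysis and pH balance. The differences of 17 of the 19 genes were above 0 and their median was 0.55, against 0.02 for all tested genes. The list was drawn up with the rise of Mgarp known, so Mgarp is no independent member. The promoters of the 3 risen genes that hold the core are shown because they let the motif be seen at its distance from the start site. They run over the 250 bases before the RefSeq start (GRCm38.p6), written 5′ to 3′ on the strand of the gene, with the core in capitals (ACGTG, or CACGT on the opposite strand).
Mgarp: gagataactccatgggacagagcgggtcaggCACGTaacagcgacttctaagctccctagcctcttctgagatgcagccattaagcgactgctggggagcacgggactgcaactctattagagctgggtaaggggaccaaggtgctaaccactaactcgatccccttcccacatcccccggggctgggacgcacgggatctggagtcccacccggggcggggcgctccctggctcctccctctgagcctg
Car9: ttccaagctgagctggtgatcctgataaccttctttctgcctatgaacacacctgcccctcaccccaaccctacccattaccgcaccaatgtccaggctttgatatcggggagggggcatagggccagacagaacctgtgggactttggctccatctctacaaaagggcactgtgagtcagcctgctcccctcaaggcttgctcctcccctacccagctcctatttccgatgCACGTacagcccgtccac
Slc2a1: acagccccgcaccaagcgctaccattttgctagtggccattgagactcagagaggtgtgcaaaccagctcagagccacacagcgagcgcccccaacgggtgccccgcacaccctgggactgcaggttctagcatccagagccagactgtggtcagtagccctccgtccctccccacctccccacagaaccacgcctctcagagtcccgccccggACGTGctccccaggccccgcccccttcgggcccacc

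The first promoter lies at chr3:51396548-51396797 on the minus strand, the second at chr4:43506776-43507025 and the third at chr4:119108495-119108744, both on the plus strand. The core begins 219 bases before the start in Mgarp, 18 bases before it in Car9 and 36 bases before it in Slc2a1. It was not in this window of Tpi1 (chr6:124814159-124814408, minus strand). Of 18 genes of the list that matched a promoter entry 10 held the core, and of 32851 promoter entries 16.6% did. The match is by letters only and says nothing on binding in these tumours.

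Mgarp, a mitochondrial protein that rises with low oxygen, had levels of 0.97, 0.75 and 0.84 in MB7, MB8 and MB9 and of −2.25, −1.55 and −3.18 in MB4, MB5 and MB6. The R-type tumours lay within a narrow range far above the S-type tumours, which overlapped normal cerebellum (−2.25 ± 0.35, SD, n = 3). The difference was 3.18 (SE 0.43, adjusted p 0.00202), and it was 4.18 in the tumours of the other doses (adjusted p 0.000284). Car9, a carbonic anhydrase of the cell surface, was at −2.67, −2.78 and −3.40 against −4.10, −3.76 and −3.92 (difference 0.98, SE 0.18, adjusted p 0.013). All 3 R-type tumours were higher, MB9 by the least.

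Tpi1, the triosephosphate isomerase of glycolysis, was at 4.20, 4.56 and 4.36 in MB7, MB8 and MB9 against 3.54, 3.76 and 2.97 in MB4, MB5 and MB6 (difference 0.95, SE 0.19, adjusted p 0.018), and MB6 was lowest. Slc2a1, the glucose transporter GLUT1, was at 2.39, 2.79 and 2.68 against 2.02, 2.04 and 2.16 (difference 0.55, SE 0.12, adjusted p 0.0259). Both were higher in normal cerebellum, at 5.46 ± 0.04 and 3.27 ± 0.13 (SD, n = 3), than in any of the 6 tumours. Without MB4 or MB7 Car9 was not called (adjusted p up to 0.0521), nor was Tpi1 without MB9 (adjusted p 0.0645), nor Slc2a1 without any 1 array other than MB7 (adjusted p up to 0.101). The list had 2 or 3 risen genes when 1 array was left out, 2 with age as a covariate, 1 with slide as a term and 1 with only the 6 arrays in the fit, with a median of 0.32 without MB6 and 0.36 with slide as a term.

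**Figure D4:**
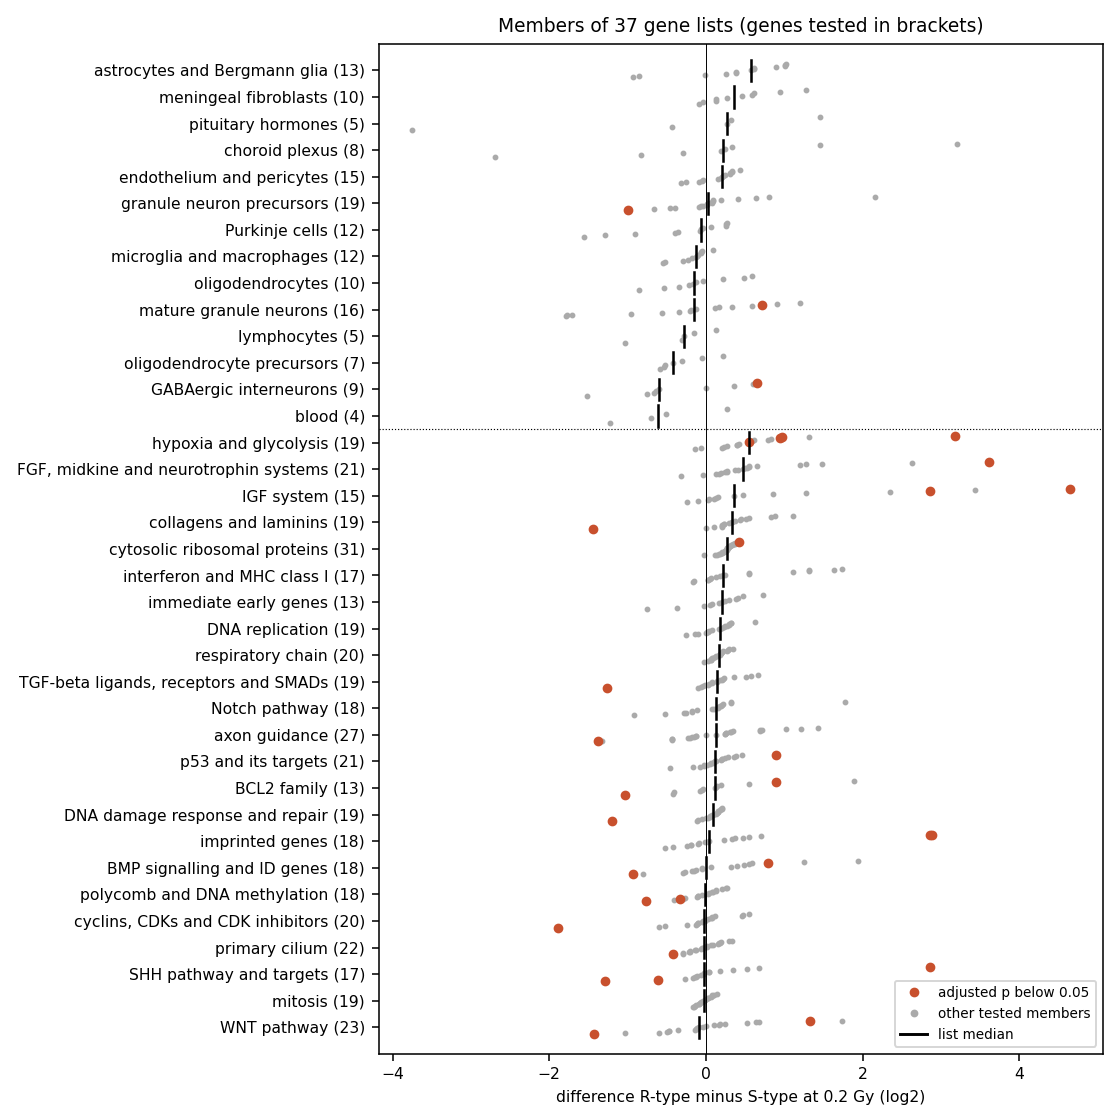
Difference of each tested member of 37 gene lists between R-type and S-type tumours at 0.2 Gy (horizontal axis, log2), with changed genes in red, other tested members in grey and the list median as a black bar; lists of cell type markers stand above the dotted line. The hypoxia and glycolysis list has 4 changed genes and a median of 0.55, while most lists have 0 to 2 changed genes.

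Growth factor systems held single genes with large rises. In the IGF system 2 of 15 tested genes rose, Igf2 and Igf2bp3, none fell, and the median was 0.35, against 1.99% of all tested genes that rose. That median was 0.18 without MB6 and 0.53 without MB4. In the list of FGF, midkine and neurotrophin genes 1 of 21 rose, Fgf5, none fell, and 19 had a difference above 0 (median 0.47). With each array left out the FGF list had 1 risen gene, and the IGF list had 0 to 3. Among TGF-beta ligands, receptors and SMADs 1 of 19 fell, the ligand Tgfb2, and none rose, against 2.78% of all tested genes that fell. Tgfb2 was at −0.22, −0.24 and −0.80 in MB7, MB8 and MB9 against 1.01, 0.75 and 0.75 in MB4, MB5 and MB6. The difference was −1.26 (SE 0.18, adjusted p 0.00339, exact permutation p 0.1), and the call held with each array left out.

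Beside 1.99% of all tested genes that rose and 2.78% that fell, 1 gene rose and 1 fell in the BMP list of 18 genes. Chrd, a secreted antagonist of BMPs, was higher by 0.79 (SE 0.18, adjusted p 0.0275), a call lost without MB4, MB6, MB8 or MB9 (adjusted p up to 0.0905), and Smad5 was the gene that fell. In the WNT list of 23 genes Sfrp2, a secreted Frizzled-related protein, rose by 1.33 (SE 0.31, adjusted p 0.034) and Fzd10, a Frizzled receptor, fell by 1.42 (SE 0.35, adjusted p 0.0415). The call of Sfrp2 was lost without any 1 array other than MB6 (adjusted p up to 0.117) and that of Fzd10 without any 1 array (adjusted p up to 0.121). None of 18 tested genes of the Notch pathway changed. The smallest p-values belonged to the ligand Dll3 (1.78, adjusted p 0.0904) and the DNA-binding mediator Rbpj (0.31, adjusted p 0.139). Their values did not overlap between the types, as in 32.5% of all tested genes.

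Genes of the cell cycle are set beside the 4.77% of all tested genes that changed. Lists of 19 or 20 genes are too small to tell 1 change or none from that share. Of 20 tested cyclins, CDKs and CDK inhibitors 1 fell and none rose, against 2.78% of all tested genes that fell. That gene, Cdkn2a, encodes the inhibitors p16INK4a and ARF, and its level was −2.61, −1.48 and −1.47 in MB7, MB8 and MB9 against 0.66, 0.34 and −0.91 in MB4, MB5 and MB6. The groups did not overlap, though MB6 lay nearer to the R-type tumours than MB4 and MB5 did. The difference was −1.88 (SE 0.42, adjusted p 0.0285, exact permutation p 0.1), and it lost its call without MB4, MB5, MB7 or MB9 (adjusted p up to 0.0992). None of 19 genes of DNA replication changed (Rrm2 0.63, adjusted p 0.133; Rfc4 0.30, adjusted p 0.162), nor did any of 19 mitotic genes (Cenpe 0.15, adjusted p 0.579; Ndc80 −0.13, adjusted p 0.615), whose median was −0.03.

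Of 21 tested genes of p53 and its targets 1 rose, Pmaip1, which encodes the pro-apoptotic protein NOXA. It was at 0.45, 1.04 and 0.93 in MB7, MB8 and MB9 and between −0.18 and 0.00 in the S-type tumours (difference 0.89, SE 0.22, adjusted p 0.0408), and its call was lost without any 1 array other than MB7 (adjusted p up to 0.146). In the BCL2 family, to which NOXA belongs, Bmf, another pro-apoptotic member, fell. Bmf was at −0.55, −0.63 and −0.74 in MB7, MB8 and MB9 against 0.34, 0.23 and 0.60 in MB4, MB5 and MB6 (difference −1.03, SE 0.12, adjusted p 0.000858), while its other probe gave −0.0008. Thus 1 of 13 tested BCL2 family genes rose and 1 fell. Among 19 genes of DNA damage response and repair Fancc was the only one that changed. These counts of the p53, BCL2 and repair lists stand beside 4.77% of all tested genes that changed.

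Of 18 genes of Polycomb and DNA methylation, Jarid2 and Tet2 fell and none rose. Tet2, which oxidises methylated cytosine, fell by a small 0.34 (SE 0.08, adjusted p 0.0326), a call lost with any 1 array left out (adjusted p up to 0.132). Among 27 axon guidance genes the semaphorin gene Sema3e stood at 1.50 ± 0.22 in R-type and 2.88 ± 0.05 in S-type tumours (SD, n = 3 each). It fell by 1.38 (adjusted p 0.0303), and this too was lost with any 1 array left out (adjusted p up to 0.0882). Of 19 collagens and laminins Lama1, a laminin chain of basement membranes, fell by 1.44 (SE 0.29, adjusted p 0.0192), a call lost without MB4, MB5, MB7 or MB9 (adjusted p up to 0.0813). Each of these lists had a median between −0.01 and 0.33, and 2.78% of all tested genes fell.

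Of 31 tested genes of cytosolic ribosomal proteins 1 passed, against 4.77% of all tested genes. In the list 30 had a difference above 0 and in 24 the types did not overlap, against 32.5% of all tested genes, with a median of 0.27. That gene, Rpl22, had R-type tumours at up to 6.18 (MB9) and S-type tumours at up to 5.76 (MB4), without overlap (difference 0.43, SE 0.11, adjusted p 0.0461). Its other probe gave −0.02, and its call was lost with any 1 array left out (adjusted p up to 0.17). Less the median of all genes, the list stood at 0.24 here and at 0.09 with quantile normalization. Leaving out the scaling cannot change such a value, since scaling moves all genes of an array alike. The risen genes of the list numbered 7 with an intensity trend and 5 with normexp, and 0 with slide or age as a term. None of 20 respiratory chain genes changed (median 0.17, Cox7b 0.28 with adjusted p 0.15, Cox5b 0.20 with adjusted p 0.17). Less the median of all genes, that list stood at 0.15 here and at 0.06 with quantile normalization.

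None of 17 interferon and MHC class I genes passed. The smallest p-values belonged to Ifit3 (1.31, adjusted p 0.0513) and Isg15 (1.31, adjusted p 0.0582), both induced by interferon. In both the types did not overlap, as in 32.5% of all tested genes. With normexp 5 genes of the list rose, and with slide or age as a term 0 did. None of 13 immediate early genes passed either (Fosl2 −0.76, adjusted p 0.0694; Jund 0.20, adjusted p 0.157).

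Markers of other cell types were set beside these results, as the level of each list summed over its genes on the linear scale and then put on the log2 scale. Of 16 genes of mature granule neurons 1 rose, Cbln1, a synaptic organiser secreted by granule cells (difference 0.72, SE 0.16, adjusted p 0.0308), a call lost without any 1 array other than MB5 (adjusted p up to 0.107). The summed level of this list was 5.59 to 5.77 in R-type and 5.26 to 5.48 in S-type tumours, without overlap. Cbln1 weighs heavily in that sum, at 5.1, 5.1 and 5.2 in MB7, MB8 and MB9 against 4.5, 4.7 and 4.0 in MB4, MB5 and MB6. Whether the sum of the other genes differed was not tested. In 7 of the 16 genes the difference was above 0. The median difference of the list was −0.16, and 0.15 with age as a covariate. The list of GABAergic interneurons had summed levels of 3.44 to 3.71 in R-type and 3.26 to 3.75 in S-type tumours. Of its 9 tested genes 1 rose and none fell, against 1.99% of all tested genes that rose. Its median difference was −0.59, and −0.61 with age as a covariate. That median was −0.18 with normexp, −0.18 without MB4 and 0.005 without the filter on dim probes (11 genes). The part of these cells in the results was not tested.

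No gene passed in the lists of astrocytes and Bergmann glia (13 genes, median 0.57), Purkinje cells (12 genes, −0.07), oligodendrocytes (10 genes, −0.15) and their precursors (7 genes, −0.41). The median of the astrocyte list was 0.25 without MB5 and 0.88 without MB8. The summed levels of astrocyte genes were 5.43 to 6.52 in R-type and 5.34 to 6.44 in S-type tumours, and those of the other 3 lists overlapped as well. Among the genes of these lists were the gap junction gene Gja1 (1.02, adjusted p 0.114) and Sox9 (0.26, adjusted p 0.274), Ppp1r17 (adjusted p 0.276) and Slc1a6 (−0.40, adjusted p 0.338), the myelin gene Mal (0.49, adjusted p 0.272), and Olig2 (−0.53, adjusted p 0.465, with probes of opposite sign) and Cspg4 (−0.31, adjusted p 0.655).

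Among blood, vessel and border cells, too, no listed gene passed. The 12 genes of microglia and macrophages (median −0.12; Cx3cr1 −0.29, adjusted p 0.146; P2ry12 −0.54, adjusted p 0.221) had summed levels of 5.49 to 5.92 in R-type and 5.67 to 6.12 in S-type tumours. The 15 genes of endothelium and pericytes (median 0.20; Flt1 0.33, adjusted p 0.401; Rgs5 0.31, adjusted p 0.429) and the 10 of meningeal fibroblasts (median 0.36; Igfbp2 1.27, adjusted p 0.0569; Slc22a6, not well above background in any of the 6 tumours) also overlapped in summed level. Their medians turned with the setting: that of the meningeal list was −0.01 without MB6 and −0.08 with age as a covariate, and that of the endothelial list −0.03 with age. The 4 blood genes varied most, from 0.32 in MB9 to 3.29 in MB7 (Hbb-bt −0.71, adjusted p 0.59; Alas2 −1.22, adjusted p 0.396). The 5 tested lymphocyte genes stood at −2.70 to −1.54 in every tumour (Cd79b −0.30, adjusted p 0.591; Cd3d, not well above background in any R-type tumour).

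Choroid plexus and pituitary genes held single genes of large spread. The 8 tested choroid plexus genes (median 0.22) included Otx2, at 0.31, −1.38 and −1.55 in MB7, MB8 and MB9 and −7.61, −3.47 and −1.17 in MB4, MB5 and MB6 (adjusted p 0.274), and Kl, which was well above background in every S-type and 1 R-type tumour (adjusted p 0.0942). Of the 5 pituitary hormone genes Prl, on chromosome 13, stood at −5.83, −3.04 and −5.04 in R-type and −1.60, −1.33 and 0.30 in S-type tumours (adjusted p 0.0826), and Lhb differed by 0.27 (adjusted p 0.165). The values of Kl, Prl and Lhb did not overlap between the types, as in 32.5% of all tested genes, and those of Otx2 did.

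The 0.2 Gy difference was set beside the difference between R-type tumours after 1.5 Gy and nonirradiated S-type tumours. The latter used none of the same arrays but shared the estimate of spread, and in it type, dose and age varied together. In both comparisons every R-type tumour was younger than every S-type tumour, so type and age cannot be told apart in either. Of the 1033 genes that changed at 0.2 Gy, 999 (96.7%) had the same sign in these other tumours, against 72.4% of all tested genes. Of these, 591 also changed there in the same direction, which is 57.2% of the genes changed at 0.2 Gy and 26.8% of the 2209 genes changed in the other tumours (10.2% of those tested), and none changed in the opposite direction. Examples were Mgarp, Plagl1, Tgfb2 (−1.40 in the other tumours, adjusted p 0.00126), Slc5a7 (−2.57, adjusted p 0.00214) and Cdkn2a (−3.72, adjusted p 0.000536). Islr2, with a large rise at 0.2 Gy, differed by −0.91 in the other tumours (adjusted p 0.35), and the difference between the differences did not pass (adjusted p 0.231). Fgl1 was not well above background in any R-type tumour after 1.5 Gy.

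A test of the difference between these 2 differences called 1 gene, 0.00462% of those tested, while 1576 had an unadjusted p under 0.05. That gene was Ndufs6, a subunit of respiratory complex I, on chromosome 13. Its level was 4.04, 4.01 and 4.13 in MB7, MB8 and MB9 and 3.98, 3.89 and 3.88 in MB4, MB5 and MB6, a difference of 0.15 (adjusted p 0.313). In the other tumours the difference was −0.87 (adjusted p 0.000195), and the 2 differences differed by 1.01 (adjusted p 0.032). Ndufs6 lies past Med10, the last gene of the low stretch in MB8, and before Ccdc127, Mctp1 and Edil3, the last genes of the low stretches in MB10, MB12 and MB11. The call was lost when any 1 of the 6 arrays at 0.2 Gy other than MB8 was left out (adjusted p 0.0618 to 0.18), and without MB8 67 genes were called in this test.

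**Figure D5:**
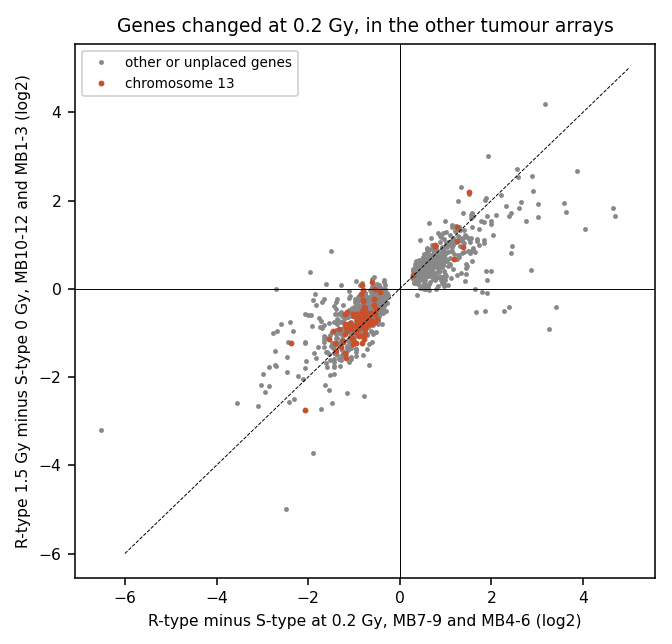
Genes changed at 0.2 Gy (1 point each, 1033 in all, those of chromosome 13 in red), with the difference R-type minus S-type at 0.2 Gy (horizontal axis, log2) against the difference between R-type tumours after 1.5 Gy and nonirradiated S-type tumours (vertical axis, log2); the dashed line marks equal values. Of the points 999 have the same sign on both axes.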

How the data were processed

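The 15 samples each had 1 Agilent mouse array in a single colour (Cy3). Intensities per spot, linear and background-subtracted but not scaled between arrays, were deposited per the file headers. The submitters' processing notes name Feature Extraction 9.5.1. No probe was saturated. A deposited table held log2 values whose making was not stated in the sources used here. Set against the scaled signals, array differences in this table gave correlations of 0.99987 to 0.99999, and MB1 plus MB2 came to 0 in each row, so it was read as log2 values centred on these arrays; its direction was that of the signals, and its scale before centring stays unknown. Its column medians were 0.0023, 0.0817 and 0.0889 for normal cerebellum and 0.0506, −0.0506, 0.1059, 0.0683, −0.0795, 0.0526, 0.0704, 0.1304, 0.1272, 0.0912, 0.1522 and 0.0996 for MB1 to MB12. It served as an alternative input only.

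Processed signals were put on the log2 scale less the 75th percentile of each array. Of 41174 probes 76 flagged ones were left out. RefSeq accessions named 24800 of the 26335 probes that carried one (17158 symbols), through a GRCm38.p6 gene table; the array annotation rests on mm9, so genes are given by order, without coordinates. Of the remaining probes 16298 kept the array's name. The brightest probe of each of 32628 names was used, and the 21661 well above background on at least 3 arrays (13428 with a symbol) were tested. Among 5397 genes with several tested probes, 1 had opposite calls at 0.2 Gy. Where no array of a group was well above background, a fold is a lower bound, with each dim array raised to its lowest signal well above background.

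Means of 5 groups of 3 arrays were fitted with limma 3.58.1 (R 4.3.3; 10 residual and 1.71 prior degrees of freedom), two-sided, with a Benjamini-Hochberg threshold of 0.05 across every tested gene; Python 3.11.15 was used for tables, and the fit was tested on simulated data. Single genes were also given an exact permutation test. Alternatives were the samples in the fit, the scaling, the background correction (normexp on median signals), the deposited table, the filter, the probe, slide, an intensity trend, age and leaving out each array. The comparison, its gene lists and members were chosen with earlier results of these data known. Named genes were Ptch1, Plagl1, Cdkn1c, Igf2, Tgfb2 and Cdkn2a. They also included the 12 highest and 12 lowest differences among changed genes without overlap between the types and with all 3 arrays of the higher group well above background, without clone, accession, Gm, Rik or LOC names. Each of 37 lists gave up to 4 changed members with the smallest adjusted p, or, where none changed, the 2 with the smallest p, and up to 4 genes came from the test of the difference between differences. Some genes that this rule named are not reported here. Scanning and slide coincided over 4 slides. Precision is limited by 3 arrays per group.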

Additional observations from a re-analysis of the deposited data

Results flagged for a closer look

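The type difference of Ndufs6 at 0.2 Gy exceeded that in the tumours of the other doses by 1.01 on the log2 scale (adjusted p 0.032 in limma), which was a test of the difference between groups itself. At 0.2 Gy its value was 0.15 and in the other tumours −0.87. It was the only gene called by this test with all arrays, and its part in the low stretches of chromosome 13, past those of MB7, MB8 and MB9, was not tested.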

How the results depend on the processing

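The 1033 genes changed between the types at 0.2 Gy became 456 with only the 6 arrays in the fit, 2673 without scaling between arrays (158 higher and 2515 lower), 541 without a filter on dim probes, 454 with slide as a term and 419 with age as a covariate. With 1 array left out they numbered 295 (without MB9) to 929 (without MB8): 432 without MB4, 390 without MB5, 469 without MB6 and 407 without MB7. The share of genes called at 0.2 Gy with the same sign in the other tumour arrays, 96.7%, was 95.01% with quantile normalization, 95.13% with normexp, 100% with age and 90.85% (without MB8) to 97.44% with 1 array left out. In the age fit both differences were adjusted by 1 shared age slope, with R-type tumours younger in both. Their signs are therefore not independent there, and the 100% adds no support. The count of genes whose type difference differed between the 0.2 Gy arrays and the other tumour arrays, 1, became 0 without scaling, without a filter, with slide or with age, 6 with quantile normalization, 3 with normexp, 5 with the stricter filter, 4 with the mean of probes and 8 with an intensity trend, and 0 to 67 (without MB8) with 1 array left out. Ptch1 passed in all 17 alternatives (highest adjusted p 0.0253). Of 47 changed genes that the naming rule took 16 passed in all 17 alternatives and none reversed. Without scaling, which moved the median of all genes to −0.23, the median of chromosome 6 was −0.078, and Jund (−0.050), Cox5b (−0.057), Cenpe (−0.106) and Ndufs6 (−0.107) changed sign; with age Slc22a6 (−0.053) and Hbb-bt (0.107) did. The causes of these shifts were not tested; leaving out arrays or using 6 of 15 leaves fewer samples. The median of chromosome 13 moved to −0.07 without the filter and −0.49 without scaling. No paired analysis was possible because the labels number the tumours MB1 to MB12 and share no number between the groups compared; slide, which 2 pairs of tumours shared, was fitted as a term instead. Genes near background have only bounds.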
